A study of Mus musculus with 12 samples.

Results

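Klf4 and the ESRRB-bound regions around it were examined in mouse embryonic stem cells by ChIP-seq, which sequences the DNA recovered with an antibody, here against ESRRB. The regions are the rows of the deposited count table on chromosome 4 whose centre lies within 150 kb of the Klf4 span, 55527137 to 55532475 (mm10), and whose nearest RefSeq protein-coding gene is Klf4. There were 25 such regions among 86201 in the table. All 25 had counts high enough to be tested.

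The NanogKO:Esrrb:Nanog line (44JN, "with Nanog" in what follows) was compared with the NanogKO:Esrrb line (44J, "without Nanog"). By their names both lines are Nanog knockouts (NanogKO) with Esrrb, and the first also has Nanog. Every sample has the same cell line label, N{delta}:cE:iN, and was grown untreated in serum with leukaemia inhibitory factor (LIF). Each line had 3 ESRRB ChIP libraries, named A, B and C in the table. The sources used here do not give how Nanog was supplied, or whether a line is a single clone. Nothing in the labels ties the libraries to separate cultures, so p-values reflect spread between libraries that may be technical. ChIP counts do not measure transcripts, so neither the embryonic stem cell label nor Klf4 expression was checked.

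KLF4 is a zinc finger transcription factor of naive pluripotency and a component of the factor set that reprograms somatic cells. In mouse embryonic stem cells its gene is a known target of LIF signalling through STAT3, and a group of enhancers downstream of the gene is known to be bound by pluripotency factors. ESRRB is an orphan nuclear receptor that binds as a monomer to the sequence TCAAGGTCA. NANOG is a homeodomain factor that acts in the same network and is known to activate Esrrb.

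Klf4 is transcribed from the minus strand, so its downstream side has the lower coordinates. Its nearest protein-coding neighbours are Rad23b, which ends 134.9 kb below it, and Actl7b, which begins 1208 kb above it. Of the 25 regions, 12 had their centre downstream of the Klf4 start at 55532475 and 13 upstream. The long noncoding RNA gene Gm12506 starts 235 bp upstream of Klf4 and runs the other way, and 8 of the regions have their centre inside it. Distances below run from the centre of a region to the Klf4 start.

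The region at the start, 55532435 to 55532781, covers the start site and the proximal promoter, which is printed to show part of the sequence under the promoter signal. These are the 250 bases before the start in the RefSeq annotation of GRCm38.p6, chr4:55532476-55532725 on the minus strand, with matches to the GC box GGGCGG on either strand in capitals.
Klf4: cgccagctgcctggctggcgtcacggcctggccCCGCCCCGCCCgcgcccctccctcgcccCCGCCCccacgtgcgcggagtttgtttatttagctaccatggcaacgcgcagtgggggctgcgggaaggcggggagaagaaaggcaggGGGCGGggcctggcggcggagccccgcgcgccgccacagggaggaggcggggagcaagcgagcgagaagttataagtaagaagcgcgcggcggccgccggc
The window is 74% G and C, against a median of 52.4% over 32851 annotated promoters. It holds 4 matches to GGGCGG, the first pair of which overlap by 1 base, and 32.7% of all such promoter windows hold at least 1. It holds 0 matches to the ESRRB site TCAAGGTCA or its core AAGGTCA on either strand, and 0.387% and 4.08% of the promoter windows hold those letters. No genome sequence was used here, so the distal regions and the parts of this region outside the window were not searched.

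Signal is given as CPM, the reads of a region scaled to a common library total by TMM, and as mean ± SD over 3 libraries of a line. Library totals in regions ranged from 6689166 to 8382646 with Nanog and from 2734338 to 5193707 without, so values without Nanog carry more counting error. Library B without Nanog stood apart. Its chi-square per degree of freedom against A and C of its line was 1.98 and 2.53, against 1.58 between A and C. It held the highest signal of its line at 10 of the 25 regions, near an even split between 3 libraries. These were not spread evenly. In the group 55.0 to 68.4 kb downstream, described below, B was the highest of its line at every region except that at 64.3 kb. Its summed signal there was 237 CPM, against 195 in A and 184 in C. Leaving it out moved the log2 difference of the group's summed signal between the lines from 0.87 to 0.97. With Nanog, library B was also the less alike one, at 1.82 against A and 1.77 against C, with 1.33 between A and C. The tests were also run with each of the 6 libraries left out in turn.

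ESRRB signal was higher with Nanog at 7 of the 25 regions, and these 7 are neighbours. They lie between 55.0 and 68.4 kb downstream of the Klf4 start, at 55462790 to 55478195, in sequence with no annotated RefSeq gene at any of their centres. None of the 18 regions elsewhere passed the test in either direction, the promoter included. Genome-wide, 9.42% of 84892 tested regions were called higher and 9.78% lower with Nanog (adjusted p under 0.05 by edgeR's quasi-likelihood test with Benjamini-Hochberg adjustment, as throughout). The median log2 fold change of the 25 regions was 0.25, against -0.01 over all tested regions.

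**Figure D1:**
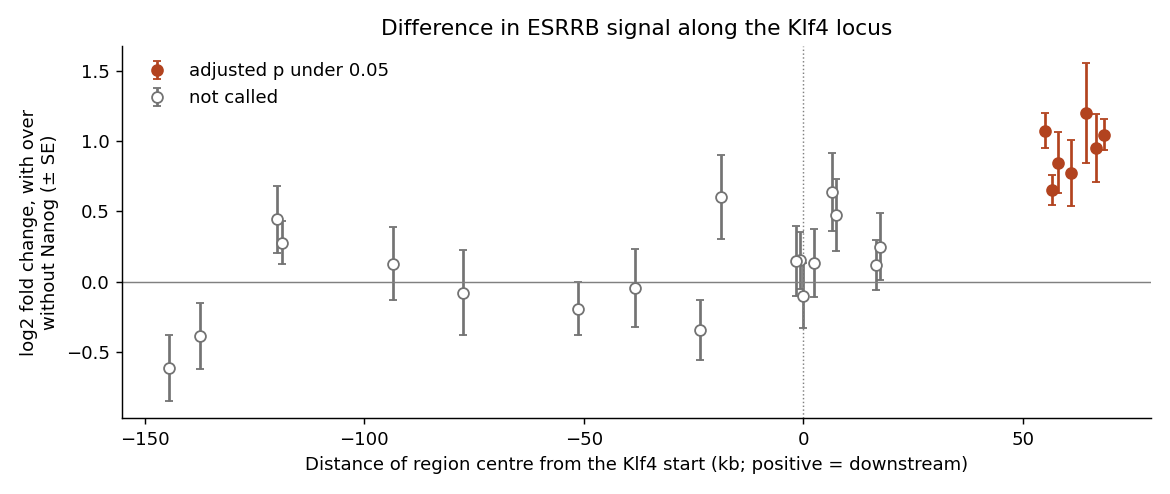
Differences in ESRRB signal, as log2 fold change with over without Nanog, are plotted with standard errors against the distance of each region from the Klf4 start in kb, positive downstream. The 7 filled points, adjusted p under 0.05, are the neighbouring regions 55.0 to 68.4 kb downstream, and the 18 open points are not called.

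The strongest region of the locus lay 56.7 kb downstream, at 55474919 to 55476599. It held 1013, 1235 and 1145 reads in libraries A, B and C with Nanog, against 231, 394 and 421 without. Scaled, this was 148, 146 and 146 CPM with Nanog and 86.1, 111 and 82.6 CPM without. The libraries with Nanog were close to each other and all lay above those without, of which B was the highest. The log2 fold change was 0.66 ± 0.11 (SE; edgeR, Benjamini-Hochberg adjusted p = 5.39e-05). Among the fits with 1 library left out, it ranged from 0.58, without library C of the line without Nanog, to 0.81, without B of that line. By mean CPM the region ranked 64th of 86201 regions with Nanog and 572nd without.

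A wide region 68.4 kb downstream, at 55462790 to 55465294, marked the far end of the group. Signal there was 94.9, 110 and 103 CPM with Nanog against 51.1, 51.3 and 47.5 CPM without, and the libraries of the lines did not overlap. This was a log2 fold change of 1.05 ± 0.11 (edgeR, Benjamini-Hochberg adjusted p = 9.59e-08). Its rank was 270 with Nanog and 2635 without, but it is wide, and per kb it stood at the 83.3rd percentile of the table, against the 98.9th for the region at 56.7 kb.

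The region nearest to the gene within the group lay 55.0 kb downstream, at 55476821 to 55478195. It held 74.9, 69.1 and 73.6 CPM with Nanog and 34.3, 38.1 and 31.4 CPM without, again with no overlap. Its log2 fold change of 1.07 ± 0.12 was close to that of the far end of the group. Its rank was 887 with Nanog and 5219 without, and per kb it stood at the 91.5th percentile.

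The other 4 regions of the group were weaker and lay between these. At 66.7 kb downstream, signal was 9.77, 10.3 and 10.4 CPM with Nanog against 5.59, 5.89 and 4.51 CPM without, with no overlap and a log2 fold change of 0.95 ± 0.24. At 64.3 kb it was 3.94, 8.26 and 4.46 CPM with Nanog against 1.12, 2.52 and 3.14 CPM without. The lowest library without Nanog had 3 reads there, so this log2 fold change, 1.20 ± 0.36, is the least precise of the group, and it was 0.78 on leaving out library B with Nanog. At 58.1 kb signal was 16.3, 14.9 and 17.1 CPM with Nanog against 8.58, 12.1 and 6.67 CPM without. At 61.0 kb it was 15.2, 23.8 and 16.2 CPM with Nanog against 8.58, 16.3 and 7.84 CPM without. This was the member of the group whose libraries overlapped, through library B without Nanog. Their adjusted p ranged from 0.00534 to 0.0183 (edgeR, Benjamini-Hochberg). With single libraries left out, 5 to 8 regions of Klf4 were called higher.

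**Figure D2:**
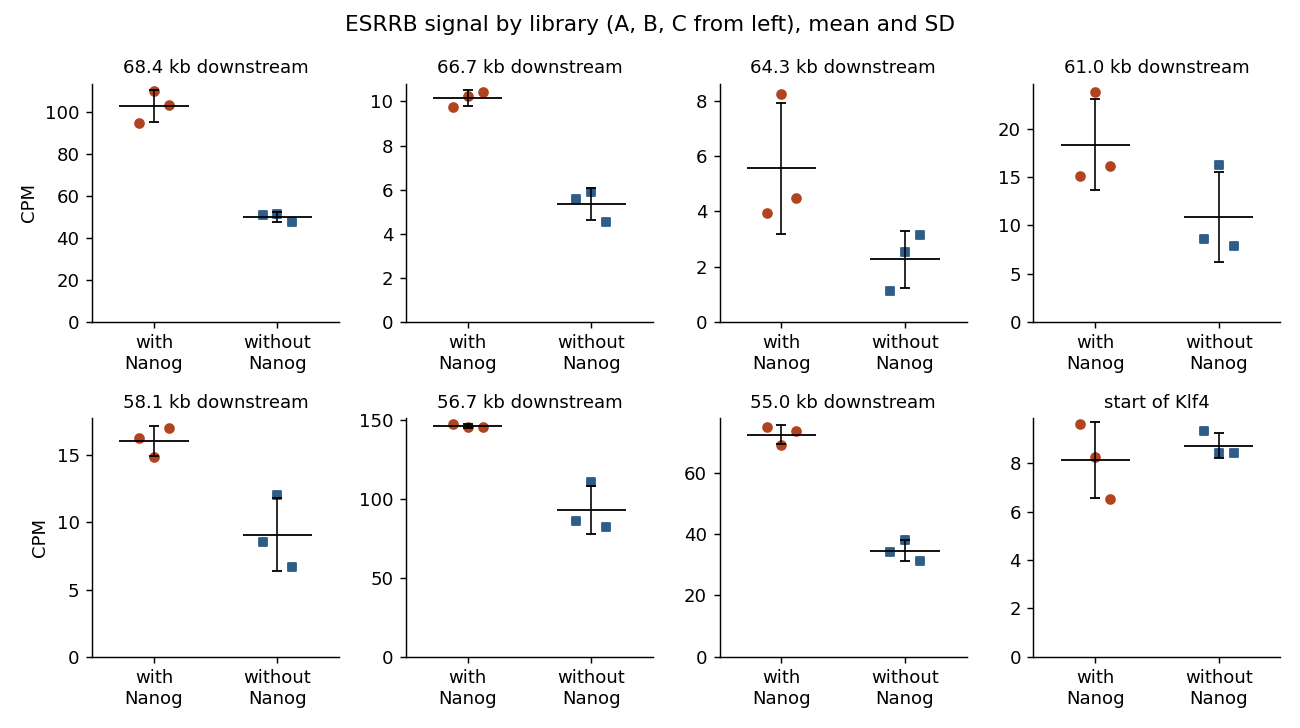
ESRRB signal in CPM is plotted for each library, with Nanog on the left and without on the right of each panel, for the 7 far downstream regions and the region at the Klf4 start, with lines and bars for mean and SD. The lines separate at 6 of the 7 downstream regions, overlap at 61.0 kb through 1 library, and overlap at the start.

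The calls that were lost when a library was left out concerned 3 of these weaker regions. The region at 64.3 kb was not called on leaving out library A of the line without Nanog or library B of the line with Nanog (edgeR, Benjamini-Hochberg adjusted p = 0.082 and 0.172). That at 61.0 kb lost its call on leaving out A or C of the line without Nanog or B of the line with Nanog, and that at 58.1 kb on leaving out C of the line without Nanog. The remaining 4, at 55.0, 56.7, 66.7 and 68.4 kb, were called in every such fit.

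At the promoter, the region over the Klf4 start held 9.62, 8.26 and 6.50 CPM with Nanog and 9.32, 8.41 and 8.43 CPM without. The lines overlapped. The log2 fold change was -0.10 with an approximate 95% interval of -0.55 to 0.36 (edgeR, Benjamini-Hochberg adjusted p = 0.817), so the interval lies below the log2 fold changes of the 3 strong downstream regions. The region in the gene body, 2.3 kb downstream of the start, held 9.62, 7.31 and 8.54 CPM with Nanog and 4.85, 8.13 and 9.22 CPM without. Its log2 fold change was 0.13, with an interval of -0.34 to 0.61. The regions 0.8 and 1.7 kb upstream both had log2 fold changes of 0.15. At the first the lowest library with Nanog, at 11.1 CPM, lay just above the highest without, at 11.0 CPM, and at the second the lines overlapped. These 4 promoter-side regions lay at the 49.5th to 70.4th percentile of the table by mean CPM and, per kb, at the 18.5th to 70.1st, with the region over the start the highest.

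Just beyond the end of the gene, 6.6 and 7.4 kb downstream of the start, were 2 weak regions with log2 fold changes of 0.64 and 0.47. The first had an approximate 95% interval of 0.10 to 1.18 but an adjusted p of 0.105 (edgeR, Benjamini-Hochberg), and it was called when library B without Nanog was left out. At both regions the libraries did not overlap between the lines. At 16.6 kb downstream a stronger region, at 55515472 to 55516365, held 23.8, 26.9 and 30.1 CPM with Nanog and 20.9, 34.5 and 19.4 CPM without. Library B without Nanog was the highest of all 6 there. The log2 fold change was 0.12 with an interval of -0.23 to 0.47.

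On the upstream side the strongest region lay 118.6 kb from the start, at 55650702 to 55651532. It held 39.1, 31.0 and 30.2 CPM with Nanog and 29.8, 23.3 and 29.4 CPM without, and the libraries did not overlap. Its log2 fold change of 0.28 ± 0.15 did not pass the test (edgeR, Benjamini-Hochberg adjusted p = 0.212), and it was 0.16 on leaving out library A with Nanog. The region 144.4 kb upstream, at 55676739 to 55677094, had the most negative value of the locus. Signal there was 6.27, 6.25 and 7.90 CPM with Nanog and 12.7, 11.5 and 8.04 CPM without, a log2 fold change of -0.61 ± 0.24 (edgeR, Benjamini-Hochberg adjusted p = 0.0651). It was called lower when library C without Nanog was left out. The 8 regions inside Gm12506 were not called, with log2 fold changes from -0.34 to 0.60.

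Over the 25 regions, the libraries of the lines did not overlap at 10 regions that were higher and 2 that were lower with Nanog. Genome-wide, 17.0% of tested regions were so separated and higher, and 16.8% so separated and lower. The 18 regions not called had log2 fold changes from -0.61 to 0.64 with a median of 0.13 and standard errors of 0.15 to 0.30. At these depths a change of the size seen in the far downstream group would not always pass the test in a weak region.

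**Figure D3:**
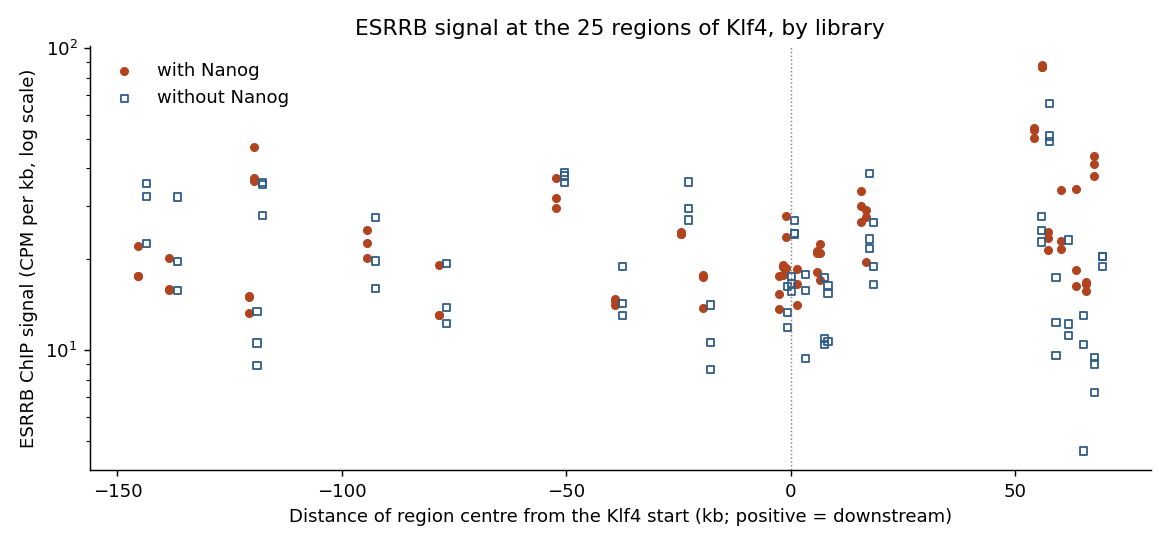
ESRRB signal per kb of region, in CPM per kb on a log scale, is plotted for the 25 regions of Klf4 against the distance from the Klf4 start in kb, positive downstream, with filled circles for libraries with Nanog and open squares for those without. The circles stand above the squares in the group on the far right except at 61.0 kb, where they overlap, and the symbols mix at most other distances.

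Regions differ in width, so levels between regions were compared per kb. At all 25 the width is that of the listed peak with Nanog, and both lines are divided by it. Listed peaks without Nanog covered 794 of 2505 bp at 68.4 kb and 344 of 1375 bp at 55.0 kb. The order without Nanog depends on these widths. With Nanog the order was led by the region 56.7 kb downstream at 87.1 ± 0.67 CPM per kb, followed by those at 55.0 kb with 52.8 ± 2.2 and 68.4 kb with 41.0 ± 3.0. The next, 118.6 kb upstream, had 40.2 ± 5.9 CPM per kb and did not differ from the 68.4 kb region beyond the spread. Without Nanog the order was different. The 56.7 kb region still led with 55.4 ± 9.0 CPM per kb, but regions 51.4 kb upstream, with 37.5 ± 1.4, and 118.6 kb upstream, with 33.1 ± 4.4, came next. Regions 23.6 kb upstream, 144.4 kb upstream and 16.6 kb downstream followed with 30.8 ± 4.7, 30.2 ± 6.8 and 27.9 ± 9.3 CPM per kb. The 55.0 kb region then had 25.2 ± 2.5 and the region over the start 25.1 ± 1.5 CPM per kb, and this pair did not differ beyond their spread.

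Summed over the 7 far downstream regions, ESRRB signal was 363, 382 and 371 CPM with Nanog and 195, 237 and 184 CPM without, a ratio of means of 1.81. The 18 other regions summed to 189, 185 and 185 CPM with Nanog and 170, 187 and 172 CPM without, a ratio of 1.06. The first sums did not overlap between the lines and the second did. The log2 ratio of the first sum to the second does not depend on library scaling. It was 1.00 ± 0.05 with Nanog and 0.21 ± 0.12 without (SD, n = 3 each). The division into 7 and 18 regions follows the calls, so the direction of this difference is set by it and no test is given. With single libraries left out the difference of 0.78 ranged from 0.73 to 0.85.

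**Figure D4:**
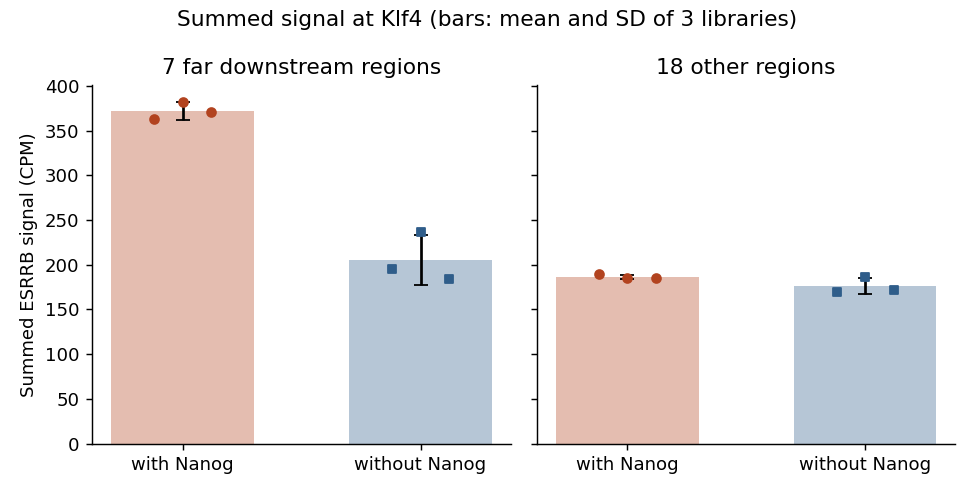
Summed ESRRB signal in CPM is plotted for the 7 far downstream regions and the 18 other regions of Klf4, with bars for mean and SD and points for the 3 libraries of each line, with Nanog on the left. The bars differ in the left panel, 372 against 205 CPM, and are 186 and 176 CPM in the right.

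The far downstream group held 66.6 ± 0.83% of the reads of the locus with Nanog and 53.7 ± 2.1% without (SD, n = 3 each). The 3 wide regions at 55.0, 56.7 and 68.4 kb alone held 57.6 ± 0.41% with Nanog and 46.5 ± 0.98% without. The 6 regions around the promoter and gene body, from 7.4 kb downstream to 1.7 kb upstream, held 8.85 ± 0.20% with Nanog and 11.2 ± 1.5% without. A share also depends on the rest of the locus, and the summed signal of these 6 was 49.6, 50.7 and 47.9 CPM with Nanog against 38.0, 43.2 and 45.7 CPM without. That is a ratio of means of 1.17, with no overlap (exact two-sided permutation test, p = 0.1, the smallest that 3 against 3 libraries can give). The strongest region by itself held 26.2 ± 0.54% with Nanog and 24.3 ± 1.6% without, and these shares overlapped between libraries (exact two-sided permutation test, p = 0.2).

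Within the group, no region's share of the reads passed a test between the lines, and 3 libraries against 3 cannot give a p below 0.1. The strongest region, at 56.7 kb, held 39.4 ± 1.3% of the group with Nanog and 45.2 ± 1.3% without, with no overlap (SD, n = 3 each; exact two-sided permutation test, p = 0.1, or 0.233 adjusted over the 7 regions by Benjamini-Hochberg). The region next to it at 55.0 kb held 19.5 ± 1.3% with Nanog and 16.9 ± 0.74% without, and that at 68.4 kb 27.6 ± 1.3% with Nanog and 24.6 ± 2.5% without. At 68.4 kb the nearest libraries were 26.17% with Nanog and 26.15% without. Shares of the 66.7, 64.3, 61.0 and 58.1 kb regions overlapped between the lines.

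The deposited peak lists describe the same stretch. Each of the 25 regions is in the list with Nanog, and 10 of them (40.0%) are in the list without, against 37.8% of all regions of the table in both lists. The lists hold 85537 peaks with Nanog and 34956 without, for 86201 regions, so a place in the first is not particular to Klf4. In the far downstream group the list without Nanog has peaks at the 3 wide regions and none at the 4 weaker ones. It holds 2 separate peaks of 794 bp in all within the 68.4 kb region, where the list with Nanog holds 1 peak of 2505 bp. Over the locus, listed peaks covered 15997 bp with Nanog and 3950 bp without, a ratio of 4.05, against 2.90 over all regions. There is 1 list per line, called on libraries of unequal depth, so these lengths have no replicate error and their relation to depth was not tested.

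Of 16001 protein-coding genes with at least 1 region assigned within 150 kb, Klf4 ranked 55th by summed CPM with Nanog and 211th without. The median gene had 3 regions, and 261 genes had 25 or more. The same spacing rule, centres within 5 kb of the next, gives 592 groups of at least 7 neighbouring regions in the table. In 1 of them, the Klf4 group, every region was called higher, and 2 held at least 7 higher calls. Over all regions in such groups 9.85% were called higher. By gene rather than by spacing, 68 of the 3639 genes with at least 7 tested regions held 7 or more higher calls. The cutoff of 7 and the condition that every region be higher were taken from the Klf4 group itself. Groups of the smallest size also meet that condition most easily. These counts describe the table and carry no test.

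At the lower edge, the 2 regions next to the group at 55454248 to 55454718 and 55456254 to 55456725 lie nearer to Rad23b, which encodes a nucleotide excision repair factor, and are not assigned to Klf4. They had log2 fold changes of 0.32 ± 0.26 and 0.06 ± 0.25 and were not called (edgeR, Benjamini-Hochberg adjusted p = 0.428 and 0.894).

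The strongest region of Klf4 was set against the strongest region of 6 other naive pluripotency genes, chosen by the same distance rule. The differences in its CPM relative to theirs, with minus without Nanog, were 0.98 on the log2 scale for Klf5, 0.78 for Zfp42, 0.66 for Tfcp2l1, 0.59 for Esrrb, 0.36 for Klf2 and 0.28 for Nanog. These 6 ratios share the Klf4 region, which was itself called higher, so they are not independent of each other or of that call. The libraries did not overlap in any of the 6, and each exact two-sided permutation test gave p = 0.1, the smallest the design allows, also after Benjamini-Hochberg adjustment over the 6. On leaving out library C without Nanog, the difference to Esrrb was 0.41 in place of 0.59. The strongest region of Klf5, a related factor that shares functions with KLF4 in these cells, held 76.8 ± 5.7 CPM with Nanog and 95.2 ± 4.8 CPM without. It was itself called lower with Nanog, with a log2 fold change of -0.31 (edgeR, Benjamini-Hochberg adjusted p = 0.0388). That of Klf2, the third KLF factor of the naive network, held 32.0 ± 2.2 CPM with Nanog and 25.8 ± 1.8 CPM without. The strongest region of Nanog was called higher, with a log2 fold change of 0.37 (edgeR, Benjamini-Hochberg adjusted p = 0.0223). Those of Klf2, Esrrb, Tfcp2l1 and Zfp42 were not called. Over all regions of each gene, Klf2 had 2 higher and 0 lower calls among 13, and Klf5 3 and 3 among 24.

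**Figure D5:**
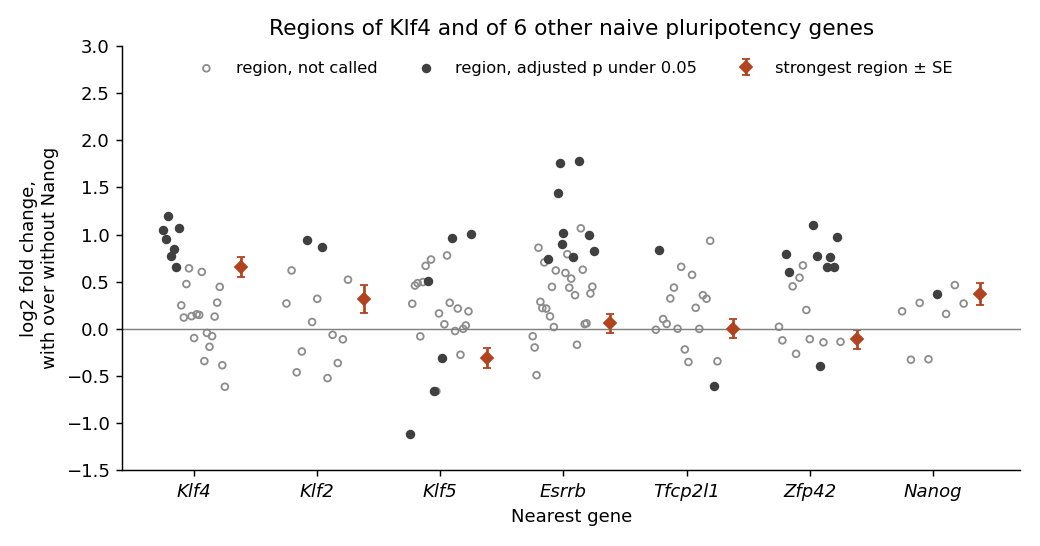
Log2 fold changes, with over without Nanog, are plotted for each tested region of Klf4 and 6 other naive pluripotency genes, with filled points for adjusted p under 0.05 and diamonds for the strongest region with its standard error. The diamond of Klf4 stands at 0.66 and the others between -0.31 and 0.37.

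Other genes of the network, the LIF pathway upstream of Klf4 and the KLF family were counted by the same distance rule. Of 247 regions at 16 naive pluripotency genes other than Klf4, 43 (17.4%) were higher with Nanog, 17 (6.88%) lower and 187 not called, with a median log2 fold change of 0.19. Esrrb, with 9 higher and 0 lower calls among 33, and Zfp42, a zinc finger marker of the naive state, with 8 and 1 among 19, held the most higher calls. Sall4 held the most lower calls, with 1 higher and 5 lower among 17. Of 124 regions at 12 LIF and STAT3 pathway genes, 14 (11.3%) were higher and 7 (5.65%) lower, with a median of 0.05. Pim1 held the most higher calls of these, with 6 higher and 1 lower among 25. Stat3 had 1 higher and 2 lower calls among 6 regions, and Socs3, the feedback inhibitor of the pathway, 2 and 1 among 17. Of 215 regions at 16 other KLF genes, 21 were higher and 21 lower (9.77% each), with a median of 0.03. Klf2 and Klf5 belong to both the KLF and the naive pluripotency lists, so their regions are counted in each. Over all tested regions 9.42% were higher and 9.78% lower, with a median of -0.01.

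The 5 regions outside Klf4 whose signal was most like that of its strongest region were found by the root mean square difference of log2 CPM over the 6 libraries. They lay 26.8 kb from Map10, inside Aff1, 5.3 kb from Olfr90, inside Arhgap26 and 16.7 kb from Fblim1, with differences of 0.125 to 0.241. Their log2 fold changes ran from 0.33 at Fblim1 to 0.79 at Olfr90. They were picked on the same 6 libraries, so fold changes in the direction of the Klf4 region follow from the choice.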

How the data were processed

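Members, gene lists and comparisons were chosen with earlier results of these data known. The deposited table holds whole-number read counts per region, unnormalised. Per the submitters' processing notes the tools were Bowtie2, MACS2, deepTools, bcl2fastq 2.19.1, bedtools 2.26.0 and SAMtools 1.4.1, on build mm10. The sources used here do not give their order or thresholds, the read counter or any duplicate removal. Peak lists, as deposited, give start and end in bp and no score. The 6 input libraries were not used here. Columns were matched to a line by its code and carry letters, not replicate numbers.

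Regions were kept by filterByExpr (84892; 1309 removed), scaled by TMM and tested with edgeR 4.0.16 in R 4.3.3 (glmQLFit, glmQLFTest, line alone, Benjamini-Hochberg over all tested regions, threshold 0.05). Standard errors are the log2 fold change over the root of F, and intervals are 1.96 of them. CPM use TMM-scaled totals of tested regions. A fold change is relative to the rest of the table and cannot show a change common to every region. Genes and strand come from RefSeq tables of GRCm38.p6, the assembly mm10 names. The likeness measure used log2 CPM with a pseudocount of 0.5. Single values were compared by exact permutation (scipy 1.17.1).

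By the naming rule, called, strongest, gene-overlapping and start-nearest regions are given library by library and others by range. The regions at 16.6 kb downstream and at 118.6 and 144.4 kb upstream are also given in full, chosen after their values were seen. Neighbouring regions form a group where centres lie within 5 kb. No library pair was a duplicate (chi-square per degree of freedom 1.33 to 2.53). On simulated data over 84892 regions for this comparison, a 4-fold change was recovered in 66 of 66 regions, a 2-fold change in 34 of 67 and a 1.5-fold change in 4 of 67. Far fewer regions were changed there than the 16303 called in the real fit, which makes the Benjamini-Hochberg adjustment stricter. These recovery rates therefore do not carry over to the real fit. Alternatives were other scalings and filters, DESeq2 1.42.0, limma-voom 3.58.1, a loess offset, a letter block, thinning, a distance of 50 kb, a reciprocal overlap of 50% and leaving out each library.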

Additional observations from a re-analysis of the deposited data

How the results depend on the processing

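Of the 7 regions called higher, 4 kept the call in every alternative fit that tested them, and 0 changed sign in any of 15 fits. The region at 64.3 kb was also lost with DESeq2 (adjusted p = 0.0538). The count was 5 to 8 with a library left out and 6 with DESeq2. It was 6 with thinning and 5 with a mean count of at least 50, where the region at 64.3 kb and, in the second, that at 66.7 kb were not tested. In the other fits it was 7. The loess offset raised the log2 fold change from 0.66 to 0.83 at 56.7 kb, from 1.07 to 1.15 at 55.0 kb and from 1.05 to 1.16 at 68.4 kb. It lowered that at 64.3 kb from 1.20 to 1.16. A limit of 50 kb left 12 regions and 1 higher call, since it passes through the group. The letter block gave 1 lower call, at 144.4 kb upstream, and 0 to 1 were made with libraries left out. Reciprocal overlap of 50% left 5 regions in the list without Nanog.

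Over the table, higher and lower calls numbered 4786 and 5437 with DESeq2, 4978 and 5503 at a mean count of at least 50, 5213 and 4917 with thinning, and 4988 to 9288 and 4780 to 8971 with a library left out. The cause was not tested. Of the 18 regions not called, 7 changed sign in some fit. Leaving out libraries moved the log2 fold change over -0.054 to 0.44 at 16.6 kb and -0.037 to 0.35 at 2.3 kb downstream, -0.22 to 0.040 at the start, -0.16 to 0.11 at 38.4 kb, -0.26 to 0.19 at 77.6 kb and -0.0019 to 0.32 at 93.5 kb upstream. Thinning gave -0.024 at 0.8 kb and -0.19 at 93.5 kb upstream, and the loess offset 0.0097 at 38.4 kb. Letters are in no label and were not taken as pairs. The deviations of libraries with the same letter correlated at 0.083, 0.22 and 0.13, and each letter correlated best with itself. With the letter as replicate block 10095 regions were higher and 10825 lower, with 7 higher at Klf4. Depth limits the weak regions, where libraries without Nanog had as few as 3 reads.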
